A study of Mus musculus with 16 samples.

Results

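The cytosolic ribosomal protein genes code for the protein parts of the 80S ribosome. Members were the protein-coding genes of the count table whose symbols begin with Rpl or Rps and a digit, together with Rpsa, Rplp0, Rplp1 and Rplp2. Of 371 names of this pattern, 275 pseudogene rows and 10 genes of the Rps6k kinases were left out, which gave 86 members of 46603 gene IDs. They lie on 19 chromosomes and comprise 33 genes of the small subunit, 49 of the large subunit, 3 of the stalk and Rps19bp1. Rps19bp1 meets the spelling of the rule but codes for a partner of Rps19 and not for a part of the ribosome. The label otherwise rests on the symbols and the protein-coding type in the annotation. Subunits and second copies were assigned from the symbols alone. Of the members, 82 passed the filter on low counts and were tested.

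The 16 libraries hold mRNA of the hippocampus, each with its own mouse number, and all mice were C57BL/6 of the wild-type genotype. Beta-sitosterol, a sterol of plants, had been given into the peritoneum at 100 mg/kg, or else vehicle alone, 1 h or 6 h before dissection. The groups were beta-sitosterol 1 h (mice 6, 7, 8 and 9), vehicle 1 h (mice 2, 3, 4 and 5), beta-sitosterol 6 h (mice 17, 18, 19 and 20) and vehicle 6 h (mice 11, 12, 13 and 14). Ages and sex are not given in the labels. All groups share the strain, the genotype and an injection.

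Ribosomal proteins assemble with ribosomal RNA in the nucleolus into a small subunit, which reads the mRNA, and a large subunit, which joins amino acids. Most of their mRNAs begin at a C followed by a run of pyrimidines, the 5′ terminal oligopyrimidine (TOP) tract, through which mTORC1 and Larp1 set how strongly they are translated. In neurons they are also found in dendrites, near sites of local protein synthesis. Counts of mRNA as used here do not measure translation.

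The bases around the annotated start show which members have a C and a pyrimidine run at that position in the reference genome. They do not show which members lack a TOP tract, because the starts used in this tissue were not measured. RefSeq (GRCm38.p6) gave a promoter entry for 66 of 86 members. A C followed by at least 4 pyrimidines stood exactly at the annotated start, on the gene's own strand, in 14 of these 66 members (21.2%) and in 813 of 27025 genes (3.01%). With the run allowed to start within 5 bases of that position the counts were 30 of 66 members (45.5%) and 5718 of 27025 genes (21.2%). Below are 7 members with a run at the start, among them Rps6, the target of the S6 kinases, and then 6 without, chosen because the comparisons turn on Rps16, Rpl10a and Rpl18 and because Rpl22l1 and Rps27l are copies and Rps19bp1 is no ribosomal protein. Each line gives 15 bases before the start and 15 from it, 5′ to 3′, and the capitals mark the pyrimidine run at the start.
Rps6 (chr4:86857353-86857382, minus strand): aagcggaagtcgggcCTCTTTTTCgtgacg
Rps18 (chr17:33955651-33955680, minus strand): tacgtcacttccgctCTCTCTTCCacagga
Rps10 (chr17:27635230-27635259, minus strand): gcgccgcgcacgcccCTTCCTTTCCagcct
Rpl38 (chr11:114668565-114668594, plus strand): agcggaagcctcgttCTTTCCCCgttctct
Rps27 (chr3:90213634-90213663, minus strand): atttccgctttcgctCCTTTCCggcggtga
Rplp2 (chr7:141447636-141447665, plus strand): tgcgtcagcgtcttcCTTTCgccgccggac
Rps21 (chr2:180257364-180257393, plus strand): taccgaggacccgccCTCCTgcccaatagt
Rps16 (chr7:28350674-28350703, plus strand): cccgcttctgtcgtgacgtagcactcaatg
Rpl10a (chr17:28328456-28328485, plus strand): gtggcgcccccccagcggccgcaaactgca
Rpl18 (chr7:45718056-45718085, plus strand): tgcgtctcgcaggccgctctttccccgccc
Rpl22l1 (chr3:28805493-28805522, plus strand): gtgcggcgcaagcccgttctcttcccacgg
Rps27l (chr9:66946071-66946100, plus strand): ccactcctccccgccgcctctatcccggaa
Rps19bp1 (chr15:80264292-80264321, minus strand): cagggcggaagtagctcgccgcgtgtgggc
The runs of the lines with capitals hold between 5 and 10 bases. Rpl18 and Rpl22l1 have pyrimidine stretches a few bases after the annotated start, and the start of a transcript in this tissue was not measured here.

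The promoters also share letters that the naming rule did not use. Over the 250 bases before and 50 after the start, on either strand, CTTCCG, letters bound by Ets family factors, was found in 44 of 66 members (66.7%) and in 5075 of 27025 genes (18.8%). AAGATGG, letters bound by YY1, was found in 15.2% of members and 7.28% of genes. TATAA was found in 27.3% of members and 28% of genes, and CACGTG, the E-box bound by Myc, in 9.09% of members and 8.09% of genes. Rps6 and Rps16 both hold CTTCCG within the window counted above. They differ in the 100 bases before the start, where capitals mark CTTCCG or its reverse complement.
Rps6 (chr4:86857368-86857467, minus strand): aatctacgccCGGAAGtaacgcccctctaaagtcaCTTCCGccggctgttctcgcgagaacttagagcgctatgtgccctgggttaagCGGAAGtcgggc
Rps16 (chr7:28350589-28350688, plus strand): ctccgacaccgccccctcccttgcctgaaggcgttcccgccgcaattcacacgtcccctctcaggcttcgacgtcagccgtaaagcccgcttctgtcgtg
Rps6 holds the letters at 3 places and Rps16 at 0 places in these 100 bases.

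Levels of members are given in CPM, reads scaled to a common library size (TMM), and between genes in CPM per kb of transcript. The tested members lay at a median of 96.5 CPM, and those that are neither second copies nor Rps19bp1 spanned 19.0 CPM (Rpl24) to 461 CPM (Rpl4). On the CPM per kb scale the highest were Rplp1, an acidic stalk protein that helps to recruit elongation factors (530), Rps15 (407), Rpl41, a very short peptide of the large subunit (322), Rps21 (303) and Rpl4, which lines the exit tunnel (just under that of Rps21). The lowest on the same scale were Rps19bp1 (12.8), Rps27l (16.9), Rps20 (19.6), Rpl24, a protein of a bridge between the subunits (28.1), and Rpl7l1 (30.2). The value of Rps20 rests on the annotated transcript used here, of 3706 bases, and a shorter transcript would give a higher value per kb. Exons of Rpl24 overlap those of Gm28037 on the same strand by 484 bases, so its low level is less certain. The median of the 82 tested members was 127 CPM per kb.

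**Figure D1:**
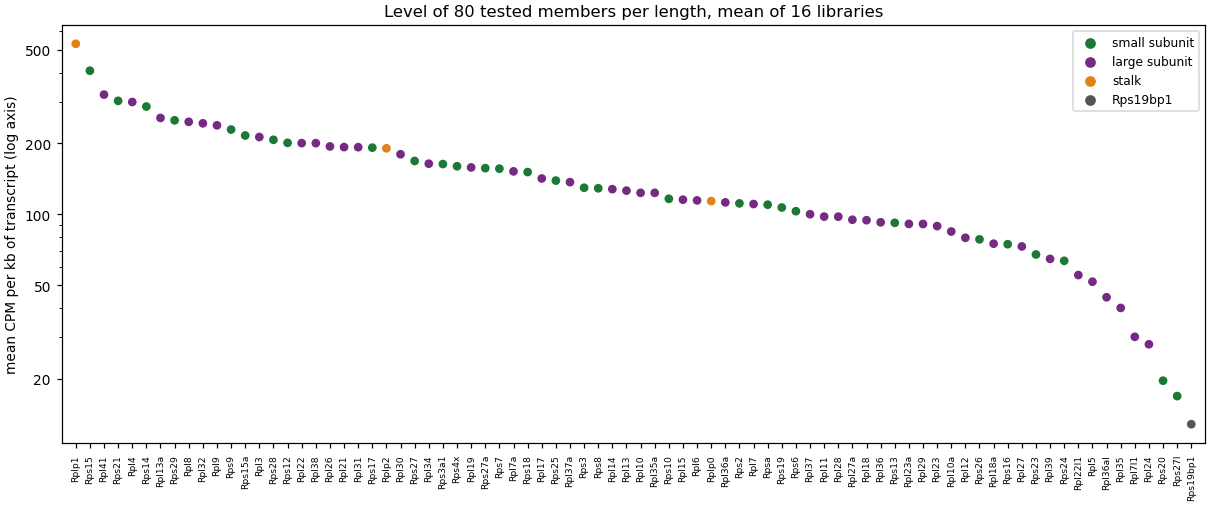
Mean CPM per kb of transcript over 16 libraries on a log axis, 1 point for each of 80 tested members, coloured by subunit. Small and large subunit genes are mixed along the order, Rplp1 lies highest at 530 and Rps19bp1 lowest at 12.8.

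The members together took 0.775% to 1.08% of counted reads. Their summed level in beta-sitosterol mice at 1 h was 8409, 8704, 8482 and 10566 CPM for mice 6, 7, 8 and 9, against 8981, 10646, 9993 and 8955 CPM for vehicle mice 2, 3, 4 and 5. At 6 h it was 7995, 8162, 7912 and 8178 CPM in beta-sitosterol mice 17, 18, 19 and 20, against 9095, 8664, 8143 and 8745 CPM in vehicle mice 11, 12, 13 and 14. The beta-sitosterol 6 h libraries were lowest and close together, with vehicle mouse 13 inside their range, and at 1 h the groups overlapped through mouse 9. The means were 9040 ± 1025 CPM for beta-sitosterol and 9644 ± 825 CPM for vehicle at 1 h, and 8062 ± 130 CPM for beta-sitosterol and 8662 ± 393 CPM for vehicle at 6 h (SD, n = 4 each). The ratio of beta-sitosterol to vehicle was 0.937 at 1 h and 0.931 at 6 h. In bulk tissue, fewer cells of a type and less RNA per cell cannot be told apart.

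**Figure D2:**
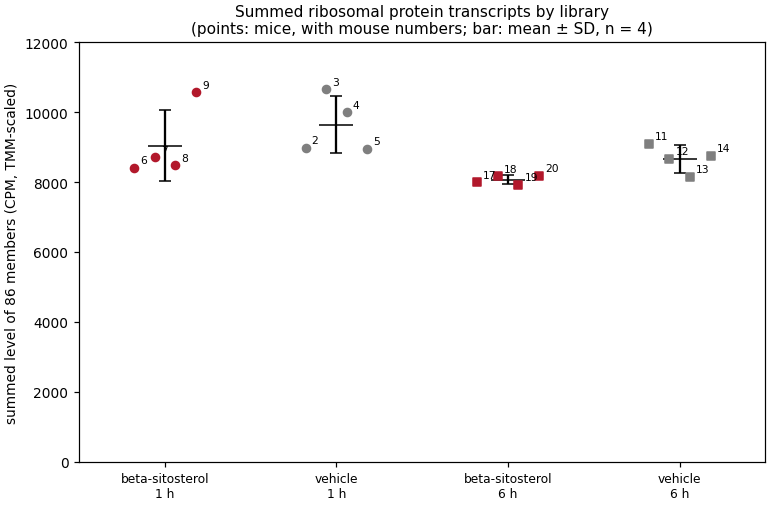
Summed CPM of the 86 members in each library, with mouse numbers, and the mean with SD of each group (n = 4). Mice 9, 3 and 4 lie highest at 10566, 10646 and 9993 CPM, and the beta-sitosterol 6 h group spans 7912 to 8178 CPM.

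The members moved between libraries as a block. In each of mice 9, 3 and 4, all 82 tested members lay above their own median over the 16 libraries. In beta-sitosterol 6 h mice 17, 18, 19 and 20, 4, 5, 1 and 9 of 82 members did so. Mouse 3 held the highest level of 44 members and mouse 9 that of 32, while mice 17 and 19 held the lowest of 27 and 26. The median coefficient of variation of a member over 16 libraries was 10.7% in CPM and 3.57% once each member was divided by the sum of the others, and it was lower after division in 80 of 82 members. Large subunit reads were 1.37 to 1.44 times small subunit reads in every library.

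**Figure D3:**
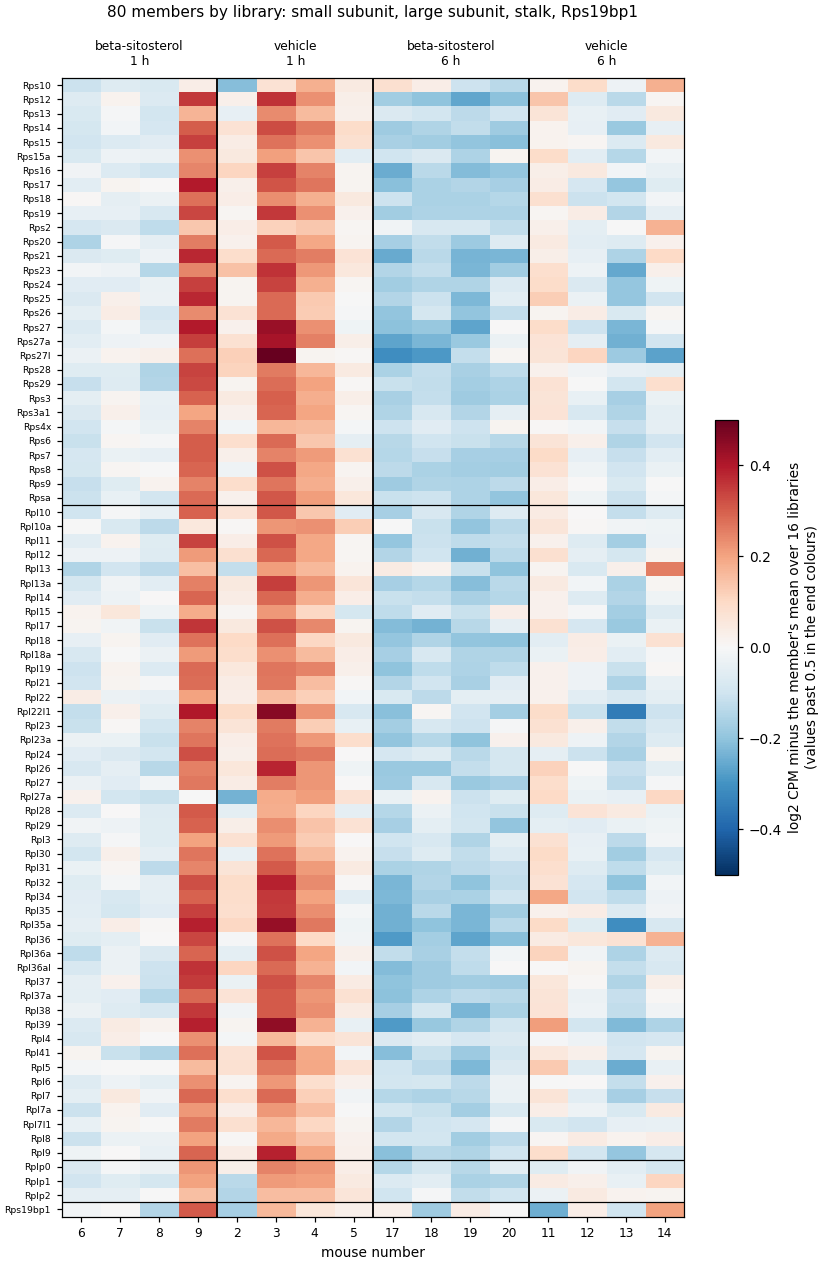
Log2 CPM of 80 tested members, each minus its own mean over 16 libraries, with members in rows by subunit and mice in columns by group. The columns of mice 9, 3 and 4 are red and those of mice 17 to 20 mostly blue across small subunit, large subunit and stalk genes.

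Some other features of the libraries moved with this block and others did not. Depth lay between 24815581 and 31266644 counted reads, with 25924377 in mouse 3 and 26269826 in mouse 9, where members were high, and 26194012 in mouse 20, where they were low. Within each library log2 CPM was regressed on log2 transcript length over genes that are not members, and the slope was lowest in mice 3 (0.890) and 9 (0.910). At 6 h it was 0.9553 to 0.9715 in beta-sitosterol and 0.9168 to 0.9562 in vehicle mice, and it was highest in mouse 19 (0.9715). Members have short transcripts, with a median of 705 bases against 2289 bases for protein-coding genes. Protein-coding transcripts of the mitochondrial genome took 6.04% of reads in mouse 3 and 5.35% in mouse 4, the highest values. Mouse 9, at 4.87%, was the highest of its own group, with 4.44%, 4.51% and 3.97% in mice 6, 7 and 8. It lay below vehicle mouse 11 (5.12%), and mice 17 to 20 were at 3.75% to 4.12%. The 16 choroid plexus markers, from the epithelium next to the hippocampus, had negative log2 fold changes for beta-sitosterol against vehicle in 16 of 16 at both times. Their summed level spanned 1210 to 2551 CPM in beta-sitosterol and 103 to 6951 CPM in vehicle mice at 1 h, and 125 to 4418 CPM in beta-sitosterol and 103 to 3619 CPM in vehicle mice at 6 h. The sum did not follow the block in mice 9 (1210 CPM) and 20 (4418 CPM). It went with the block in mice 3 (6951 CPM), 17 (125 CPM) and 19 (142 CPM). Microglia markers were negative in 10 of 10 at both times, with sums of 417 to 464 CPM in beta-sitosterol and 446 to 514 CPM in vehicle mice at 1 h, and 359 to 415 CPM in beta-sitosterol and 403 to 449 CPM in vehicle mice at 6 h. Astrocyte markers were negative in 10 of 10 at 1 h, where their sums did not overlap (5866 to 6318 CPM with beta-sitosterol, 6410 to 7364 CPM with vehicle). At 1 h 9 of them had an unadjusted edgeR p under 0.05, against 10.2% of all genes, and at 6 h 0 had. At 6 h astrocyte markers were negative in 9 of 10 (5412 to 6128 CPM with beta-sitosterol, 5838 to 6543 CPM with vehicle). Oligodendrocyte markers were negative in 6 of 10 at 1 h (5525 to 7400 CPM with beta-sitosterol, 5301 to 9762 CPM with vehicle) and in 10 of 10 at 6 h (4928 to 6222 CPM with beta-sitosterol, 5736 to 7583 CPM with vehicle). Endothelial markers were negative in 8 of 10 at 1 h, where their sums did not overlap (241 to 268 CPM with beta-sitosterol, 279 to 286 CPM with vehicle), and in 7 of 10 at 6 h (254 to 291 CPM with beta-sitosterol, 258 to 299 CPM with vehicle). Red blood cell markers were positive in 5 of 6 at 1 h (383 to 477 CPM with beta-sitosterol, 376 to 451 CPM with vehicle) and in 6 of 6 at 6 h (400 to 420 CPM with beta-sitosterol, 362 to 408 CPM with vehicle). Meningeal and mural markers were negative in 7 of 10 at 1 h and 4 of 10 at 6 h. Neuron markers were positive in 8 of 10 at 1 h and 9 of 10 at 6 h, within 11961 to 14525 CPM over all libraries. None of these marker genes was called, and all passed the filter on low counts. The part of these features in the results on members was not tested, apart from the fits with a covariate given with each comparison.

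At 6 h every tested member had a lower estimate with beta-sitosterol, and none passed the test over all genes. Rpl36, a large subunit protein, had 28.9, 31.3, 29.3 and 30.4 CPM in beta-sitosterol mice 17, 18, 19 and 20, against 36.2, 36.6, 37.0 and 39.7 CPM in vehicle mice 11, 12, 13 and 14. All treated mice lay below all vehicle mice, and the gap between the groups was wider than the range within either. The means were 30.0 ± 1.06 CPM with beta-sitosterol and 37.4 ± 1.56 CPM with vehicle (SD, n = 4 each), which gave a log2 fold change of -0.32 (SE 0.0803). Its unadjusted p was 0.000938 and its Benjamini-Hochberg adjusted p 0.321 by the edgeR quasi-likelihood test.

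Rpl18, another large subunit protein, had 55.7, 57.5, 55.6 and 55.4 CPM in beta-sitosterol mice at 6 h, against 61.6, 65.4, 62.3 and 67.3 CPM in vehicle mice. Rps16, a small subunit protein whose tail reaches the transfer RNA in the P site, had 69.2, 74.8, 70.8 and 72.0 CPM in the beta-sitosterol mice, against 84.0, 85.2, 81.4 and 80.1 CPM in the vehicle mice. The groups of both genes did not overlap. Their log2 fold changes were -0.19 (SE 0.0658) and -0.21 (SE 0.0729), with edgeR adjusted p of 0.321 and 0.322. Exons of Rpl18 overlap those of Sphk2 on the opposite strand by 373 bases, so its reads are less certain than those of Rpl36 and Rps16, which overlap no other gene.

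Over the list at 6 h, 0 of 82 members were called by edgeR at an adjusted p of 0.05, and 0% of all genes tested were. DESeq2 and limma also called 0 members, and 0.721% and 0% of all genes. At an unadjusted p under 0.05 there were 13 members (15.9%), all lower, against 12.1% of all genes. The members' median log2 fold change was -0.11, against -0.014 over all genes tested, and 82 of 82 members were negative. All beta-sitosterol mice lay below all vehicle mice in 22 of 82 members, where this held for 3.47% of all genes, and above them in 0 members, where this held for 5.5%. Because members follow each other from library to library, these counts are not independent. The count at an unadjusted p under 0.05 ranged from 3 (without mouse 19) to 28 (without mouse 9) as single mice were left out. Mouse 9 is in neither 6 h group, but the estimate of each gene's spread is shared over all groups. The median was -0.11 in the small subunit (32 genes) and -0.10 in the large subunit (46 genes). With the length slope as covariate the median of all tested members was 0.0053 with 39 of 82 members negative, and with the mitochondrial percent -0.0075 with 43 negative.

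**Figure D4:**
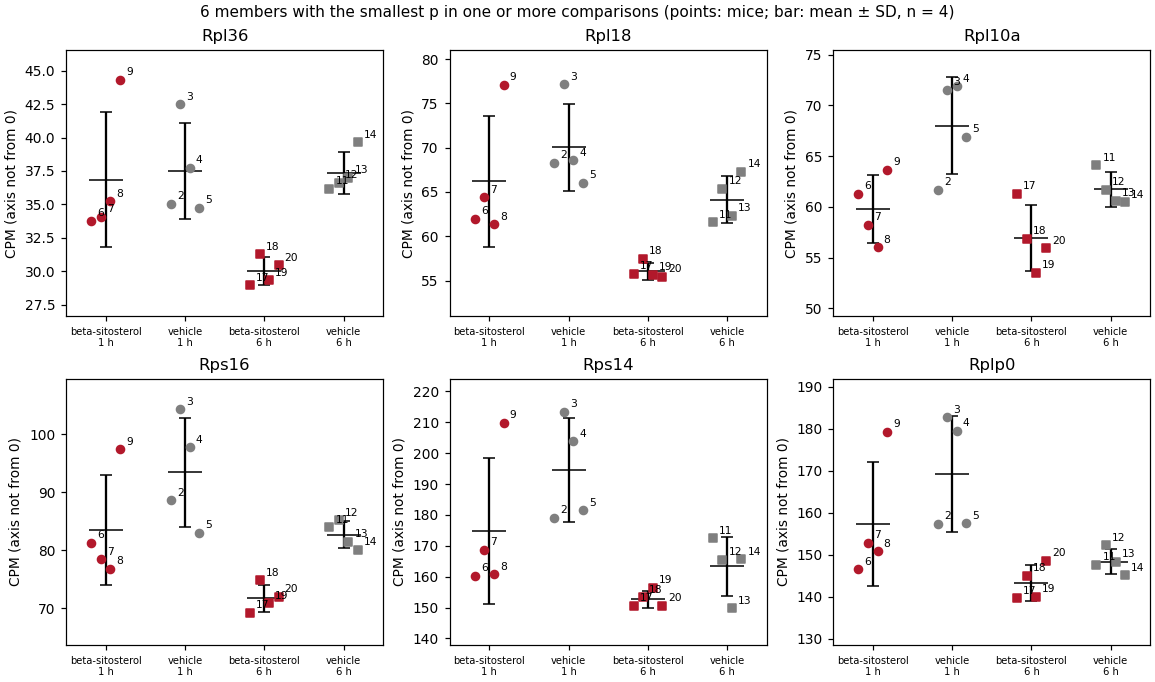
CPM of Rpl36, Rpl18, Rpl10a, Rps16, Rps14 and Rplp0 in each mouse, with mean and SD per group (n = 4). At 6 h the beta-sitosterol mice lie below the vehicle mice in Rpl36, Rpl18 and Rps16, and at 1 h mouse 9 is the highest treated mouse in all 6 panels.

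At 1 h the members' estimates were also nearly all negative, but no tested member separated the groups. Rpl10a, the protein of the L1 stalk, through which spent transfer RNA leaves the ribosome, had 61.3, 58.2, 56.0 and 63.7 CPM in beta-sitosterol mice 6, 7, 8 and 9, against 61.7, 71.5, 71.9 and 66.9 CPM in vehicle mice 2, 3, 4 and 5. The groups met only through mouse 9 and mouse 2. Its log2 fold change was -0.19 (SE 0.0568) with an unadjusted p of 0.00423 and an edgeR adjusted p of 0.397. Rps16 had 81.3, 78.4, 76.8 and 97.4 CPM with beta-sitosterol and 88.6, 104, 97.7 and 83.03 CPM with vehicle, and overlapped through mouse 9 (log2 fold change -0.16, SE 0.0725). Rps23, which sits at the decoding centre, averaged 63.8 ± 7.40 CPM with beta-sitosterol and 72.1 ± 6.58 CPM with vehicle (SD, n = 4 each), which gave a log2 fold change of -0.18 (SE 0.0820).

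Over the list at 1 h, 0 of 82 members were called by edgeR at an adjusted p of 0.05, as were 0% of all genes. DESeq2 and limma called 0 members too, and 0.317% and 0% of all genes. The groups did not overlap in 0 members, where 1.95% of all genes lay wholly lower and 3.04% wholly higher. At an unadjusted p under 0.05 there were 3 members (3.66%), against 10.2% of all genes, and the count ranged from 1 (without any 1 of mice 3, 4, 6, 7 and 8) to 67 (without mouse 9), with 17 without mouse 2 and 15 without mouse 5. Of the estimates 81 of 82 were negative, with a median of -0.098 against -0.0039 over all genes tested. The exception was Rps19bp1 at 0.021 (SE 0.106), whose sign changed when mouse 9 or mouse 2 was left out. The median was -0.18 without mouse 9 and -0.042 without vehicle mouse 3, so these libraries moved it by more than 1.5 times. With the length slope as covariate it was -0.0095 with 47 negative, and with the mitochondrial percent 0.053 with 11 negative.

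**Figure D5:**
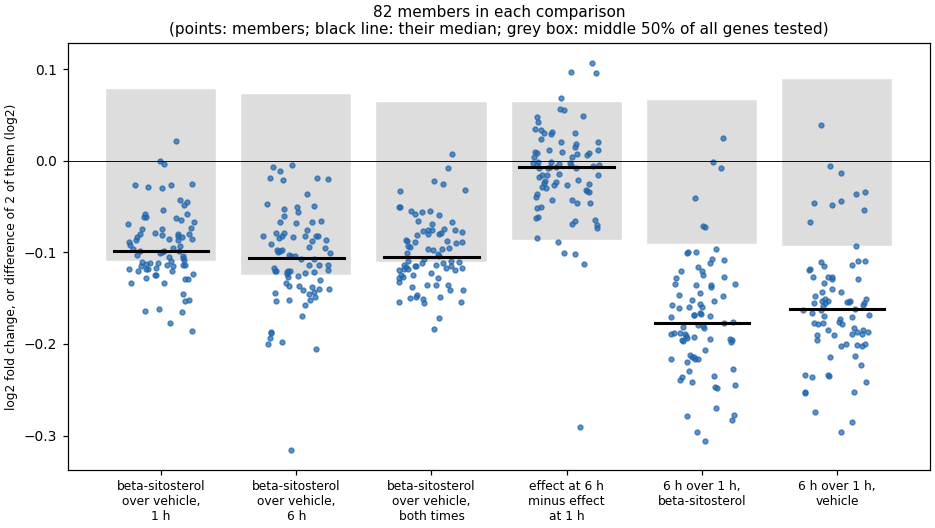
Log2 fold changes of the 82 tested members in 6 comparisons (points), their median (line) and the middle 50% of all genes tested (grey). The medians are -0.098, -0.11, -0.11, -0.0071, -0.18 and -0.16 from left to right, and Rpl36 is the lowest point at 6 h and in the difference of the effects.

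Averaged over both times, with 8 mice in each arm, 0 of 82 members were called by edgeR where 0.0762% of all genes were, 13 in number. At an unadjusted p under 0.05 there were 30 members (36.6%), all lower, against 20.5% of all genes. That count ranged from 15 (without vehicle mouse 3) to 69 (without mouse 9). The members' median was -0.11, against -0.013 over all genes tested. The smallest p belonged to Rpl10a (log2 fold change -0.15, SE 0.0402, edgeR adjusted p 0.0663), Rps16 (-0.18, SE 0.0514, adjusted p 0.0692) and Rpl36 (-0.17, SE 0.0565, adjusted p 0.105). DESeq2 called 5 members, among them Rps16, Rpl10a, Rpl36 and Rpl18, where it called 7.67% of all genes. Without mouse 9 edgeR called 6 (Rps16, Rps21, Rpl36, Rpl18, Rps15 and Rps28), with 0.227% of all genes called, and without vehicle 1 h mouse 5 it called 2 (Rps16 and Rpl10a), with 7.01%. With genes under a mean of 5 CPM left out it called 2 (4.26% of genes), and with the choroid plexus score as covariate 1 (2.67%). limma called 0 members and 0.604% of all genes. With the length slope as covariate the median was -0.0076 with 45 members negative, and with the mitochondrial percent its sign turned (0.024, with 26 negative). Under either covariate 0 members were called.

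The effect at 6 h was not shown to differ from that at 1 h. Of 82 members 0 were called in this contrast by edgeR, as were 0% of all genes, and DESeq2 and limma called 0. The median difference of log2 fold changes was -0.0071, with 52 of 82 negative, and its sign did not hold. It was negative in 12 of 16 fits that left out 1 mouse, and positive without mouse 9 (0.075), 5 (0.029), 2 (0.027) or 11 (0.018). Of the 10 other alternatives 1 kept it negative, with the mitochondrial percent as covariate (-0.062). Only Rpl36 had an unadjusted p under 0.05 (-0.29, SE 0.113, p 0.0193, edgeR adjusted p 1), against 1.92% of all genes. At 1 h Rpl36 had 33.8, 34.0, 35.2 and 44.3 CPM in beta-sitosterol mice 6, 7, 8 and 9, against 35.1, 42.5, 37.7 and 34.8 CPM in vehicle mice 2, 3, 4 and 5, which overlapped. Next by p were Rpl18 (-0.11, SE 0.0927) and Rpl28 (-0.10, SE 0.104), and among the members above 0 Rpl10a (0.069) and Rpl24 (0.096) were in the 3 of smallest p.

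The 6 h groups also had lower estimates than the 1 h groups in both arms. In beta-sitosterol mice 81 of 82 members were negative with a median of -0.18, against -0.0080 over all genes tested. By edgeR 0 members were called, as were 0% of all genes, with 0 members by DESeq2 (0.0821% of all genes) and limma (0%), and 47 members (57.3%) had an unadjusted p under 0.05, against 6.97% of all genes. All 6 h mice lay below all 1 h mice in 34 of 82 members, where this held for 2.67% of all genes, and above them in 0, where this held for 2.61%. Rpl36 (log2 fold change -0.30, SE 0.0803), Rpl18 (-0.24, SE 0.0658) and Rps21 (-0.28, SE 0.0869) had the smallest p, with edgeR adjusted p of 0.537, 0.537 and 0.599. Rps21 had 99.6, 108, 101 and 101 CPM at 6 h, against 113, 114, 116 and 154 CPM at 1 h, where mouse 9 is the highest value. The median was -0.088 without mouse 9, with 10 members at an unadjusted p under 0.05. It was -0.077 with the mitochondrial percent as covariate, with 7 such members, and -0.090 with the length slope, with 32.

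In vehicle mice 81 of 82 members were negative at 6 h against 1 h, with a median of -0.16 against 0.0045 over all genes tested. By edgeR 0 members were called, as were 0% of all genes, with 0 members by DESeq2 (0.551% of all genes) and limma (0%). There were 39 members (47.6%) with an unadjusted p under 0.05, against 10.6% of all genes, and 9 members whose groups did not overlap, all lower, where 2.81% of all genes were wholly lower and 2% wholly higher. Rps14, a small subunit protein, had 172, 165, 150 and 166 CPM in vehicle mice 11, 12, 13 and 14 at 6 h, against 179, 213, 204 and 182 CPM in vehicle mice 2, 3, 4 and 5 at 1 h. Its groups did not overlap (log2 fold change -0.25, SE 0.0775, edgeR adjusted p 0.306). Rplp0, which anchors the stalk proteins Rplp1 and Rplp2, averaged 148 ± 2.96 CPM at 6 h and 169 ± 13.8 CPM at 1 h (SD, n = 4 each), which gave a log2 fold change of -0.19 (SE 0.0630). The count at an unadjusted p under 0.05 was 5 without mouse 3 and 67 without mouse 9. Mouse 9 is in neither vehicle group, but the estimate of each gene's spread is shared over all groups. With the mitochondrial percent as covariate the vehicle median was -0.013, with 48 negative, and with the length slope -0.106, with 79 negative. Rps10 was the exception in both arms, at 0.025 (SE 0.0726) in beta-sitosterol and 0.039 (SE 0.0723) in vehicle mice. Exons of Rps10 overlap those of RPS10-NUDT3 on the same strand by 475 bases, so reads of Rps10 are less certain. The sign of Rps10 turned without mouse 17 in beta-sitosterol mice (-0.014) and without mouse 2 in vehicle mice (-0.035). The 1 h and 6 h mice were not the same animals, and hour of day is not given in the labels.

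Like all 82 tested members, those with known roles outside peptide synthesis had negative estimates at 6 h. Rps6, the S6 kinase target, averaged 82.7 ± 1.14 CPM with beta-sitosterol and 87.9 ± 6.08 CPM with vehicle at 6 h, and 93.8 ± 12.1 CPM with beta-sitosterol and 97.8 ± 9.28 CPM with vehicle at 1 h (SD, n = 4 each). Rpl5 and Rpl11, which with 5S RNA can bind Mdm2, were at -0.082 (SE 0.0688) and -0.079 (SE 0.0819) in log2 fold change at 6 h. Rpsa, also known as a laminin receptor, had -0.12 (SE 0.0781), and Rpl38, needed for translation of Hox mRNAs in mouse embryos, -0.14 (SE 0.0884). None of these passed the test.

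Transcripts often used as references for quantitative PCR were among them. Rps18 averaged 76.5 ± 1.40 CPM with beta-sitosterol and 82.4 ± 5.00 CPM with vehicle at 6 h, and Rpl13a 239 ± 5.71 CPM with beta-sitosterol and 262 ± 15.8 CPM with vehicle (SD, n = 4 each). Their edgeR log2 fold changes were -0.11 (SE 0.0671) and -0.14 (SE 0.0759), adjusted p 0.53 and 0.476. Over 16 libraries the lowest coefficients of variation belonged to Rpl22 (6.45%), Rplp2 (6.70%) and Rps2 (6.82%), and the highest to Rps27l (16.2%), Rpl35a (15.8%) and Rpl22l1 (15.7%). The 6 h estimates of Rplp1, Rplp2 and Rpl41 were -0.14, -0.095 and -0.15 (log2), of which none passed.

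Most second copies were low or nearly silent. Rpl10l, expressed in testis in mice, had 0 reads in all 16 libraries, which allows at most 0.0960 to 0.121 CPM per library (3 reads, counting error only). Rpl39l had 0 to 2 reads per library, Rpl3l, a striated muscle form, 3 to 11, and Rps27rt, a copy of Rps27, 0 to 10. The copies that passed the filter held 14.5% (Rps27l, a p53 target, against Rps27), 30.7% (Rpl7l1 against Rpl7), 32.0% (Rpl22l1 against Rpl22) and 43.0% (Rpl36al against Rpl36a) of the reads of their main copies. Near-identical copies and pseudogenes can share reads, so these shares are uncertain, and the pseudogene rows took 0.244% to 0.321% as many reads as the members.

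Among the copies that passed the filter, the ratios of copy to main gene overlapped between treatments at both times in Rpl22l1, Rpl36al, Rpl7l1 and Rps27l. The ratio of Rpl22l1 to Rpl22, which it can replace in mice that lack Rpl22, was 0.289 to 0.350 in beta-sitosterol and 0.263 to 0.334 in vehicle mice at 6 h. At 1 h it was 0.285 to 0.364 in beta-sitosterol and 0.304 to 0.390 in vehicle mice. Rpl36al to Rpl36a was 0.404 to 0.435 with beta-sitosterol and 0.399 to 0.441 with vehicle at 6 h.

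Relative to the sum of the other members, Rpl36 had the lowest ratio of beta-sitosterol to vehicle of the 82 at 6 h. Its ratio of group means was -0.22 on the log2 scale, against -0.10 for Rps16, the next lowest, and quartiles of -0.033 and 0.025 over the 82 members. At 1 h the same value for Rpl36 was 0.066. On the log2 scale around its own mean over 16 libraries, Rpl36 was at -0.14, -0.060, -0.11 and -0.10 in beta-sitosterol mice 17, 18, 19 and 20. In vehicle mice 11, 12, 13 and 14 it was at -0.0052, 0.083, 0.19 and 0.18. The ratio at 6 h thus holds both lower values with beta-sitosterol and higher values with vehicle. The steadiest parts of the block were Rpl14, Rps3 and Rpl21, whose share of the sum varied by 1.85%, 1.91% and 1.96% over 16 libraries. These values use no test.

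Genes that work with the ribosome were described by the same counts, beside 46.1% of all genes tested with a positive estimate at 6 h and 48.7% at 1 h. Genes of ribosomal proteins under other symbols were negative in 3 of 3 at both times, with Fau lowest in p at 6 h (log2 fold change -0.18, SE 0.0682, edgeR adjusted p 0.34). Of 77 tested mitochondrial ribosomal protein genes 45 were negative at 6 h, with a median of -0.016, and 40 at 1 h, with a median of -0.00023. Of 34 initiation factors 27 were positive at 6 h and 25 at 1 h (Eif3a 0.14, SE 0.0530, at 6 h), and of 39 tested ribosome biogenesis genes 24 and 32 (Ncl, nucleolin, 0.15, SE 0.0516, at 6 h). Of 12 elongation and release factors 7 were positive at 6 h and 8 at 1 h, with Etf1, a release factor, at 0.14 (SE 0.0486) at 6 h.

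Of 20 other genes whose mRNAs have a TOP tract, 7 were positive and 13 negative at 6 h, and 6 positive and 14 negative at 1 h, with medians of -0.042 and -0.048. They include the 3 ribosomal protein genes under other symbols. Of the remaining 17, 7 were positive and 10 negative at 6 h, and 6 positive and 11 negative at 1 h. Gas5, a host of small nucleolar RNAs, had the smallest p at 1 h (log2 fold change -0.16, SE 0.0581). Of 21 genes of mTORC1 and the S6 kinases 13 were positive at 6 h and 14 at 1 h, with Pdcd4 at 0.14 (SE 0.0455) at 6 h and Rps6kb1 at 0.12 (SE 0.0554) at 1 h. For 6 h against 1 h, the 17 other TOP genes were 16 negative and 1 positive in beta-sitosterol mice. In vehicle mice they were 15 negative and 2 positive. Negative over time in beta-sitosterol and vehicle mice were 58 and 45 of 77 mitochondrial ribosomal, 20 and 18 of 34 initiation and 28 and 15 of 39 biogenesis genes. Of all genes tested, 46.8% and 51.3% were positive in these comparisons. By edgeR 0 genes of these lists were called in any of the 6 comparisons, and the difference between each list and the members was not tested.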

How the data were processed

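Hippocampal RNA from 16 mice (4 per group, RIN of at least 7) was sequenced after TruSeq mRNA preparation, per the labels' protocols. The submitters' processing notes name CASAVA 1.8.2, cutadapt, TopHat2 2.0.10, HTSeq 0.6.1p1, DESeq2 1.6.3 and GRCm38. Which strand setting and which annotation were used for counting is not given in the sources used here. The deposited counts are raw whole-number reads per Ensembl gene. The deposited normalized signal is the same counts times 1 factor per library, made by the authors, and served as an alternative.

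Of 46603 gene IDs, 46091 matched the annotation used for names and lengths. Counts were scaled by TMM, filtered with filterByExpr (minimum count 10, minimum total 15), which kept 17055 genes with 99.9% of reads, and tested with the edgeR 4.0.16 quasi-likelihood test in R 4.3.3 with 1 mean per group over all 16 libraries and 12 residual degrees of freedom. P-values were Benjamini-Hochberg adjusted over all genes tested and called under 0.05. Alternatives used DESeq2 1.42.0 and limma 3.58.1 (log2 of signal plus 1), other scalings and filters, covariates, and leaving out each mouse. The scripts were tested on simulated data. Counted reads ranged from 24815581 to 31266644 per library. Intervals and floors cover counting error only. Nothing in the labels ties mice to cages or days.

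Members and gene lists were chosen with earlier results of these data known. Named in each comparison were members called, the 3 members of smallest p on either side of 0, the 5 highest and lowest per kb, the 3 lowest and highest in coefficient of variation, second copies with their main copies, and a short list of well-known members. From each other list the gene with the smallest p was named. The values of a few single genes are not reported here, and these genes remain in all counts and medians. Members named beyond this were chosen after their values were seen. Promoter sequences came from RefSeq (GRCm38.p6), and protein sequences were not used here.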

Additional observations from a re-analysis of the deposited data

Results flagged for a closer look

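Among groups of 4 mice, chance sets a mouse apart in about 1 in 20 groups by the gap criterion used here (the gap to the nearest mouse over the range of the group). In the beta-sitosterol 1 h group, mouse 9 stood apart from the other treated mice in the summed level of the members (10566 CPM), and in Rpl28 (93.0 CPM), Rpl36 (44.3 CPM), Rps14 (209.8 CPM), Rps18 (101.9 CPM) and Rps21 (153.9 CPM), each time as the highest value. Over all 82 tested members mouse 9 stood apart in 35. In the beta-sitosterol 6 h group, mouse 18 was set apart as the highest in Rpl18 (57.5 CPM). Mouse 9 also had the second lowest length slope (0.910), and the part of that slope in these values was not tested within the group.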

How the results depend on the processing

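No paired analysis was possible because mouse numbers differ between all groups. Members called were 0 under every alternative run except for the mean of both times, with 2 under a filter at a mean of 5 CPM, 5 by DESeq2, 1 with the choroid plexus score as covariate, and 0 to 6 as single mice were left out; limma called 0. With the mitochondrial percent as covariate the members' median became 0.053 at 1 h, 0.024 for the mean of both times and -0.013 for 6 h against 1 h in vehicle mice, and with the length slope 0.0053 at 6 h; the cause was not tested. The mitochondrial covariate and leaving out mice 3 and 9 together were chosen after seeing the data. As single mice were left out, the median ranged from -0.18 to -0.042 at 1 h, -0.135 to -0.077 at 6 h, -0.148 to -0.075 for their mean, -0.061 to 0.075 for their difference, -0.21 to -0.088 for time in beta-sitosterol mice and -0.199 to -0.109 in vehicle mice.

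Under the covariates the signs of many members turned. With the mitochondrial percent 11 of 82 were negative at 1 h, 43 at 6 h, 26 for their mean and 48 for time in vehicle mice, and with the length slope 47 at 1 h, 39 at 6 h and 45 for their mean. Of the leading members followed one by one in their own comparisons, 3 turned under some alternative. Rps23 at 1 h was 0.0072 with the mitochondrial percent. Rps19bp1 at 1 h was -0.028 without mice 3 and 9 and -0.076 to 0.078 as single mice were left out (-0.039 without mouse 2). For the mean of both times it was -0.0046 under the strict filter, -0.0076 with the choroid score, -0.017 without mice 3 and 9, and -0.041 to 0.047 as single mice were left out. Rps10 in beta-sitosterol mice over time was -0.017 with the choroid score and -0.014 (without mouse 17) to 0.058 as single mice were left out, and in vehicle mice -0.035 (without mouse 2) to 0.092. With 4 mice per group, standard errors were near 0.076 on the log2 scale between single groups and near 0.054 for the mean of both times. The power to detect changes of the members' size gene by gene was not tested. An absence of calls does not show an absence of change.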

Other observations

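After each member was divided by the sum of the others, Rps10, Rpl13 and Rpl27a shared a sign in many mice but not in all. This pattern was chosen after the values were seen. On the log2 scale around its own mean, Rps10 was at -0.23 in beta-sitosterol mouse 9 and -0.24 in vehicle mouse 2, and at 0.22 in beta-sitosterol mouse 17 and 0.19 in vehicle mouse 14. Rpl27a was at -0.26, -0.27, 0.11 and 0.12 in the same mice, and Rpl13 at -0.11, -0.15, 0.18 and 0.27. In beta-sitosterol mouse 6, however, Rpl27a was at 0.093, Rpl13 at -0.085 and Rps10 at -0.040. In vehicle mouse 12 Rps10 was at 0.117, Rpl13 at -0.052 and Rpl27a at -0.0085. The signs also differed in mice 4, 5, 11 and 20. Rps10 and Rpl27a were the members whose coefficient of variation was not lower after the division. Exons of all 3 overlap other annotated genes on the same strand, as do those of 28 of the 86 members in all. In Rps10 this is RPS10-NUDT3, over 475 bases, and Gm15420 also overlaps it on the opposite strand by 189 bases. In Rpl13 these are Snord68 and Mir7079 and in Rpl27a Snora3, all small RNAs. The part of the overlaps was not tested.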
